A study of Mus musculus with 4 samples.

Results

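Receptors for colony-stimulating factors and a set of macrophage growth factors were examined in mouse alveolar macrophages. The set was fixed by gene symbol and held 10 genes, the receptor subunits Csf1r, Csf2ra, Csf2rb and Csf2rb2, the ligand Csf1, the transforming growth factor beta genes Tgfb1, Tgfbr1 and Tgfbr2, and the growth factors Igf1 and Vegfa. Of these, 8 had counts in at least 1 library, among 7280 genes with counts in all, and all 8 were among the 2993 genes tested. Csf1 was listed at 0 in every library and Vegfa was not analysed here. The assay was SAGE (serial analysis of gene expression), which counts a short tag beside an NlaIII cut site of each transcript. All mice were wild-type BALB/c. The "Pre AM" group (2 libraries) came from untreated mice without lung metastasis, and the "Day 21 AM" group (2 libraries) from mice with lung metastasis, injected intravenously 21 days earlier with the mouse hepatocellular carcinoma line BNL. No sham injection of the untreated mice is described, and the effects of injection and of metastasis cannot be told apart. Whether replicate libraries represent separate mice or pools, and the age of the mice, is not stated in the labels. The p-values therefore measure the spread between the 4 samples alone, and that spread may be technical.

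Alveolar macrophages are the resident phagocytes of the air spaces. Granulocyte-macrophage colony-stimulating factor (GM-CSF), which binds the alpha chain encoded by Csf2ra and signals through the common beta chain encoded by Csf2rb, drives their development from fetal monocytes, and transforming growth factor beta made by the macrophages themselves helps to maintain them. Macrophage colony-stimulating factor (Csf1), acting through the tyrosine kinase Csf1r, is the main survival factor of most other macrophages, including those that arise from blood monocytes. Insulin-like growth factor 1 (Igf1) and vascular endothelial growth factor A (Vegfa) are secreted by macrophages in repair and in tumours.

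The 10 genes had 57 listed tags, of which 46 had counts and 44 of those 46 matched transcripts of their own gene alone. The tags below carry the comparisons. Each is the 21-base deposited tag preceded by the NlaIII site in capitals, read 5′ to 3′ on the transcript strand. Coordinates are in GRCm38 with GENCODE M21 annotation, and "last site" marks a tag with no further NlaIII site downstream in a principal transcript.
Igf1, last site: CATGgatgttgtagagatccagttg
Csf2ra, upstream: CATGcaccgtgacctcgcgggaggc
Csf2ra, last site: CATGatcaaagttcgatagtcagta
Csf2rb, upstream: CATGgtgccacttgcccagaatgtg
Csf2rb, last site: CATGtttacatacaataaaacagca
Csf2rb2, last site: CATGttaagatatgaacactgaaat
Tgfbr1, last site: CATGggccctctttagaaaagcaga
Tgfb1, last site: CATGattgtgcgctcctgcaagtgc
Tgfbr2, 3′ UTR: CATGtattcaaataggaatgtgaat
Tgfbr2, coding: CATGagaacatcctgcagttcctga

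The Igf1 tag is at chr10:87931059-87931083 (plus strand) in the 3′ untranslated region (UTR), exon 5 of 5 of a principal transcript, 743 bases from the 3′ end. In a longer annotated Igf1 transcript that is not principal, further sites lie downstream, and the tag is at site 20 of 22 from the 3′ end. The upstream Csf2ra tag is at chr19:61227052-61227076 (minus strand), in coding exon 3 of 12, and the last-site tag at chr19:61224447-61224471, in the 3′ UTR 70 bases from the end. The upstream Csf2rb tag spans the junction of coding exons 4 and 5 of 14 on chromosome 15 (78338967 to 78340445, plus strand), and the last-site tag is at chr15:78350967-78350991, 34 bases from the end of the 3′ UTR. The last-site tag of Csf2rb2, which is on the same chromosome, is at chr15:78282575-78282599 (minus strand), 93 bases from the end. The Tgfbr1 tag is at chr4:47414165-47414189 (plus strand, 3′ UTR, exon 9 of 9). The Tgfb1 tag is at chr7:25704912-25704936 (plus strand), in coding exon 7 of 7. The Tgfbr2 tags are at chr9:116087813-116087837 (minus strand, 3′ UTR of the longer annotated transcript) and chr9:116109833-116109857 (coding exon 4 of 7 of the shorter).

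Csf2rb and Csf2rb2 are near-identical neighbours. Csf2rb2 encodes a second beta chain that in the mouse serves the interleukin-3 receptor, while the chain from Csf2rb is shared by the GM-CSF, interleukin-3 and interleukin-5 receptors. The tags of both genes at the corresponding junction of exons 4 and 5 are shown here without CATG, and capitals mark where they differ.
Csf2rb, exons 4 and 5: gtGccactTgcccagAatgtg
Csf2rb2, exons 4 and 5: gtCccactGgcccagCatgtg
Counting from 1 at the first base after CATG, the substitutions from Csf2rb to Csf2rb2 are G3C, T9G and A16C, and the other 18 bases are the same. These tags separate the genes, but 1 tag assigned to Csf2rb2 also matches Csf2rb and 1 tag assigned to Csf2rb also matches Csf2rb2, so the sums of both genes are uncertain by those tags.

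Total counts ranged from 1630776 to 2198563 per library. No library held a tag with a count of 1, so a listed 0 can stand for a tag read once. Values below are counts per 1000000 (CPM) scaled by edgeR's trimmed mean of M-values (TMM). At the 2993 genes tested with edgeR's quasi-likelihood test, the threshold was a Benjamini-Hochberg adjusted p under 0.05. The alveolar macrophage label was checked against 30 identity marker names, which include second names for Siglecf and Chil3. Of these, 26 had counts, and Fabp4 was listed at 0. Marco, named after its values were seen, had 2 counts in Pre AM replicate 1 and 0 in the other libraries. The 8 listed of 15 lymphocyte markers and the 1 listed of 7 dendritic cell markers were at 0. Only 1 of 11 hepatocyte-lineage markers was listed, Afp, with 3 counts in 1 Pre AM library and 0 in the others. Since these are bulk samples, fewer cells of a type and less RNA per cell cannot be told apart.

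Igf1 rose on day 21, the only gene of the set to pass the test. It encodes a secreted growth factor that signals through the Igf1r tyrosine kinase. Its counts were 11 and 19 in Day 21 AM replicates 1 and 2 and 0 in both Pre AM libraries, or 6.28 and 13.5 CPM against a listed 0. Every count came from the last-site tag printed above, and the other 2 listed Igf1 tags were at 0 throughout. Both day 21 libraries were above both Pre AM libraries. That order was fixed once the gene was tested, since it passed the count filter only through the day 21 libraries. The adjusted p was 0.0311 in edgeR's test. Because Igf1 had no counts in Pre AM, its size is given as a bound: at least 3.42-fold higher, from the day 21 mean of 9.91 CPM over a floor of 6.43 counts per Pre AM library. That floor is the count at which all 3 listed tags would stay at 0 or 1 reads with a probability of 5%. It takes reads as spread evenly over the listed tags, although every count came from the last-site tag. The bound covers counting error in Pre AM only, since the day 21 value is used without its own error. With the lower day 21 library alone (without Day 21 AM replicate 2) the bound was at least 2.17-fold, and the gene fell under the count filter and was not tested.

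With 1 of 8 tested genes past the threshold in the higher direction and 0 in the lower, the count stood beside 0.668% and 0.0668% of all tested genes. At an unadjusted p under 0.05 the counts were 2 higher (Igf1 and Csf1r) and 0 lower of 8, beside 3.54% higher and 2.14% lower of all tested genes. Both counts include Igf1, which entered the test only through its day 21 counts and could only come out higher. No excess in the set is read from them. DESeq2 called 1 gene of the set and 0.835% of all genes, and limma-voom called 0 and 0.401%. Igf1 was detected at low counts, and its call was lost in most of the alternative settings that tested it. The adjusted p was 0.687 without Pre AM replicate 1 and 0.0673 without Pre AM replicate 2, against 0.0228 without Day 21 AM replicate 1. It was 0.194 with total counts in place of TMM, 0.642 with limma-voom and 0.0571 with the replicate number as a block. With the robust prior the adjusted p was 0.0588, and with each tag as its own feature 0.124. The call held with relative log expression size factors (0.0161), DESeq2 (0.0410), no count filter (0.000349) and sums by deposited symbol (0.0325).

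Markers of monocyte-derived and interstitial macrophages moved with Igf1. Of 23 such genes, 15 had counts and 11 were tested. In that list 8 genes rose, 0 fell and 3 did not pass, with a median log2 change of 4.49 beside −0.07 over all tested genes. The summed CPM of the list was 11766 and 7111 in the day 21 libraries and 1358 and 793 in the Pre AM libraries. C1qb, a subunit of the complement C1q complex, had 75 and 96 counts on day 21 and 0 in both Pre AM libraries, and C1qc had 125 and 71 counts against 0. Apoe, an apolipoprotein, went from 28.5 and 78.5 CPM to 1733 and 2716 CPM, a log2 change of 5.37 ± 0.70 (SE, n = 2 and 2; edgeR adjusted p = 3.95e-05). Mmp14, Ms4a7, Pf4, Trem2 and H2-Eb1 also passed. The 8 calls became 0 without Pre AM replicate 1, 5 with total counts alone, 4 with limma-voom, 5 with each tag as its own feature, 4 from last-site tags and 0 from other tags. This list was known to move in these libraries when it was chosen. Its part in the Igf1 and Csf1r values was not tested.

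**Figure D1:**
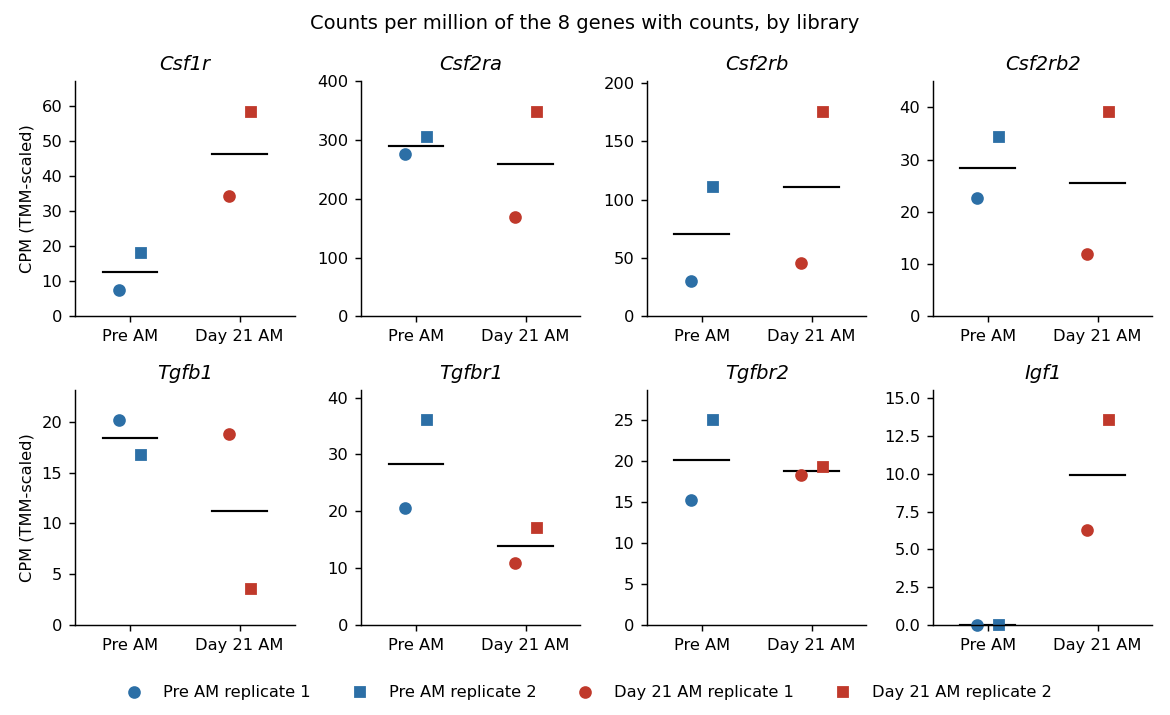
CPM (TMM-scaled, linear axes that start at 0) of the 8 genes with counts in each library; circles are replicate 1, squares replicate 2, and bars are group means. Csf1r and Igf1 were higher in both day 21 libraries, Tgfbr1 was lower in both, and the groups of the other 5 genes overlapped.

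Csf1r, the receptor for Csf1 and interleukin-34, had higher values in both day 21 libraries but did not pass the test. Its counts were 60 and 82 on day 21 and 15 and 44 in Pre AM, or 34.2 and 58.4 CPM against 7.36 and 17.99 CPM. The groups did not overlap. The mean was 46.3 ± 17.1 CPM on day 21 and 12.7 ± 7.52 CPM in Pre AM (SD, n = 2 each), a log2 difference of 1.86 ± 0.74 (SE; edgeR adjusted p = 0.625, unadjusted p = 0.0184). Of 8 tested genes, 2 had both day 21 values above Pre AM, where 15.2% of all tested genes did so. They were Igf1, whose order was fixed by the count filter, and Csf1r. Its log2 difference stayed positive in every setting, from 1.36 without Pre AM replicate 1 to 2.67 without Pre AM replicate 2, and no setting brought the adjusted p under 0.05.

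The higher Csf1r values were spread over its tags. All 4 Csf1r tags had higher CPM in both day 21 libraries than in either Pre AM library. Over all tested tags, that order held for 10.9% of last-site tags and 19.7% of other tags. The most counted tag had 22 and 38 counts against 2 and 21, the next 14 and 29 against 9 and 10. Neither passed edgeR's test on single tags (adjusted p = 0.997 and 0.999). The last-site tag, in the 3′ UTR, had 11 and 7 counts against 4 and 9, and the least counted tag had 13 and 8 against 0 and 4. These tags fell under the count filter and were not tested. At the last site the groups overlapped by counts and were apart only by CPM (6.28 and 4.99 against 1.96 and 3.68). The 4 Csf1r tags come from the same transcripts and are not replicates. Csf1, the ligand, had 9 listed tags with no count in any library. Its floor, with reads taken as spread evenly over those tags, was 9.46 counts per library. That is 5.40 and 6.74 CPM in the day 21 libraries and 4.64 and 3.87 CPM in the Pre AM libraries. Lower levels could have been missed at this depth.

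Csf2ra, the GM-CSF-binding chain, did not differ beyond the spread between libraries when all of its tags were summed. Its counts were 297 and 489 on day 21 and 564 and 745 in Pre AM, or 170 and 348 CPM against 277 and 305 CPM. The day 21 libraries lay on either side of the Pre AM pair. The log2 difference was −0.17 ± 0.60 (SE, n = 2 and 2; edgeR adjusted p = 0.998), which leaves room for changes of either sign, and it was 0.32 without Day 21 AM replicate 1.

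The Csf2ra tags differed in how they ordered the groups, but no tag of the gene passed a test. The upstream tag in coding exon 3 held most counts, with 249 and 430 on day 21 and 455 and 537 in Pre AM (142 and 306 CPM against 223 and 220 CPM). The last-site tag had 31 and 43 counts against 89 and 166, or 17.7 and 30.6 CPM against 43.7 and 67.9 CPM. For that tag both day 21 libraries lay below both Pre AM libraries, and its log2 difference was −1.22 ± 0.70 (edgeR on single tags, adjusted p = 0.999). In edgeR's test of whether a tag moves differently from the rest of its gene, the last-site tag did not pass. Its relative log2 change there was −1.03 (unadjusted p = 0.163, adjusted p = 0.9999). It made up 10.4% and 8.79% of Csf2ra counts on day 21 (exact Clopper-Pearson 95% intervals 7.20% to 14.5% and 6.44% to 11.7%, counting error only). In Pre AM the share was 15.8% and 22.3% (intervals 12.9% to 19.1% and 19.3% to 25.4%). The lower order was not confined to the last site. The least counted Csf2ra tags, under the count filter, were also lower in both day 21 libraries by CPM. They had 6 and 4 counts against 8 and 11, and 2 and 2 against 3 and 9. The remaining tag, with 9 and 10 counts against 9 and 22, overlapped.

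Csf2rb, the common beta chain, differed more between replicates than between groups. Its counts were 80 and 246 on day 21 and 62 and 271 in Pre AM, or 45.7 and 175 CPM against 30.4 and 111 CPM. Replicate 2 was the higher library in each group, and the groups overlapped. The log2 difference was 0.64 ± 0.72 (SE, n = 2 and 2; edgeR adjusted p = 0.998). It turned to −0.60 without Day 21 AM replicate 2 and rose to 1.89 without Pre AM replicate 2, neither past the threshold.

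The summed CPM of neutrophil markers had the same order over the libraries as Csf2rb. That sum was 75.9 and 280 on day 21 and 10.8 and 159 in Pre AM, from 6 of 12 markers with counts. Most of it was Camp alone, at 69.1 and 251 CPM against 9.32 and 140 CPM. The order was not particular to neutrophil markers. Summed CPM of the alveolar macrophage identity list followed it (3194 and 5678 on day 21, 2734 and 5522 in Pre AM). So did that of the other growth factors of macrophages (1341 and 3491 on day 21, 431 and 2572 in Pre AM). Elane, the neutrophil elastase gene, had counts in the replicate 2 libraries only (6 and 7). Mmp8, named after its values were seen, had 0 and 0 counts on day 21 and 3 and 2 in Pre AM. Of the 2 tested markers, Camp and S100a9, neither passed edgeR's test, 0 had an unadjusted p under 0.05, and DESeq2 and limma-voom called 0. Both passed, as higher, without Pre AM replicate 2. Their part in the Csf2rb values was not tested.

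The upstream and last-site tags of Csf2rb pointed in opposite directions. The upstream tag at exons 4 and 5 had 55 and 205 counts on day 21 and 32 and 186 in Pre AM, a log2 difference of 0.96 ± 0.86 with overlapping groups. The last-site tag had 7 and 4 counts against 28 and 24, or 3.995 and 2.85 CPM against 13.7 and 9.81 CPM. Both day 21 libraries lay below both Pre AM libraries at that site, with a log2 difference of −1.78 ± 0.83 (edgeR on single tags, unadjusted p = 0.0511, adjusted p = 0.999). In edgeR's test of tag usage, which asks whether a tag moves differently from the rest of its gene, the last-site tag had a relative log2 change of −2.38 (unadjusted p = 0.00486, adjusted p = 0.9999 over 1987 tags, of which 0.0503% passed). The last site held 8.75% and 1.63% of Csf2rb counts on day 21 (95% intervals 3.59% to 17.2% and 0.445% to 4.11%) and 45.2% and 8.86% in Pre AM (32.5% to 58.3% and 5.76% to 12.9%). The share in Pre AM replicate 2 and that in Day 21 AM replicate 1 differed by less than counting error.

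Csf2rb2 also gave different pictures at different sites. Its summed counts were 21 and 55 on day 21 and 46 and 84 in Pre AM, or 11.99 and 39.2 CPM against 22.6 and 34.3 CPM, with overlapping groups and a log2 difference of −0.16 ± 0.73 (SE, n = 2 and 2; edgeR adjusted p = 0.998). The last-site tag had 19 and 7 counts against 39 and 41, both day 21 libraries below both Pre AM libraries, with a log2 difference of −1.18 ± 0.77 (adjusted p = 0.999). The tag at exons 4 and 5 had 2 and 25 counts against 3 and 13, and the tag shared with Csf2rb had 0 and 23 against 2 and 23. Outside the last site, most Csf2rb2 counts thus lay in the replicate 2 libraries, 48 against 2 in replicate 1 on day 21 and 43 against 7 in Pre AM. In edgeR's test of tag usage no Csf2rb2 tag passed. The unadjusted p was 0.181 at the last site and 0.155 at exons 4 and 5 (adjusted p = 0.9999 each).

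**Figure D2:**
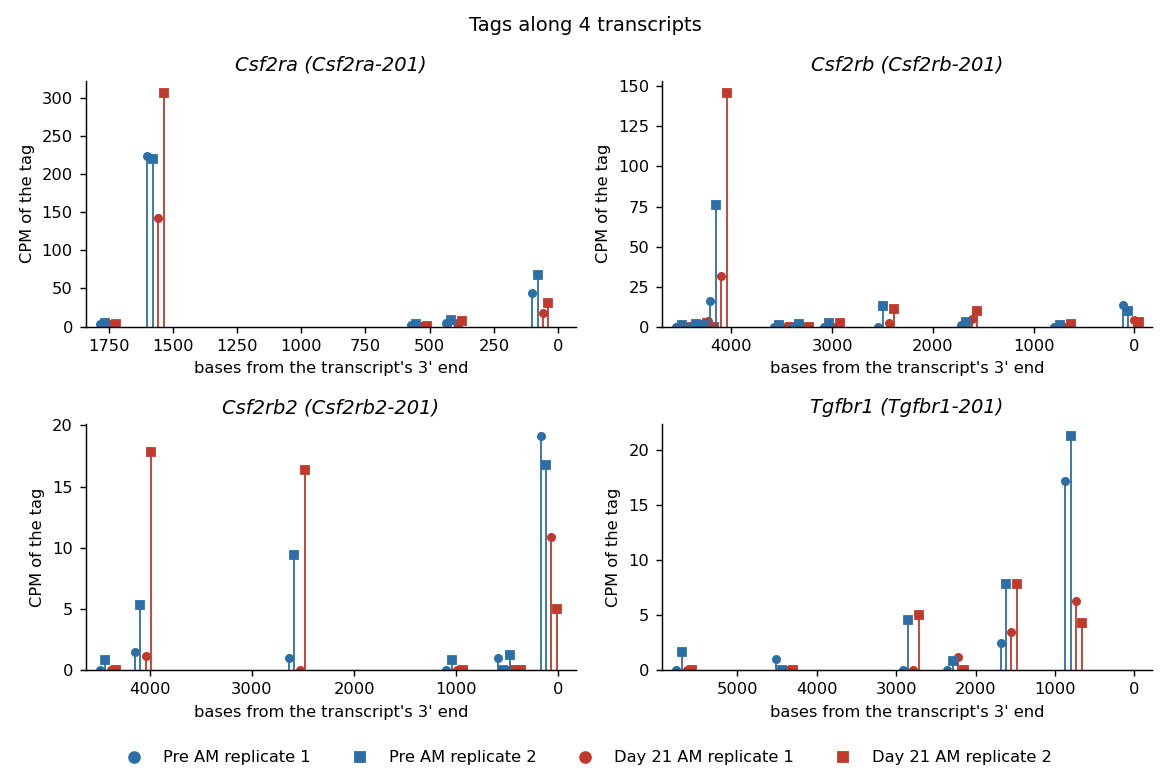
CPM of each tag along 4 transcripts, plotted by distance in bases from the 3′ end; the libraries of 1 tag are offset sideways so that the stems do not overlap. For Csf2ra, Csf2rb, Csf2rb2 and Tgfbr1 the tag nearest the 3′ end was lower in both day 21 libraries, while tags farther upstream were mostly higher in replicate 2.

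Tgfb1, the ligand, was read at 33 and 5 counts on day 21 and at 41 and 41 in Pre AM, or 18.8 and 3.56 CPM against 20.1 and 16.8 CPM. Day 21 AM replicate 1 lay among the Pre AM values and replicate 2 below them. The mean was 11.2 ± 10.8 CPM on day 21 and 18.4 ± 2.37 CPM in Pre AM, and the log2 difference of −0.70 ± 0.79 did not pass (SE, n = 2 and 2; edgeR adjusted p = 0.998). The difference rested on 1 library: without Day 21 AM replicate 2 it was 0.06. The last-site tag (12 and 3 counts against 21 and 15) and the tag at exons 2 and 3 (17 and 2 against 13 and 18) both had their lowest value in that library.

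Tgfbr1, the type I receptor kinase, was the only tested gene of the set with both day 21 values below both Pre AM values, 1 of 8 where 16.0% of all tested genes were so ordered. Its counts were 19 and 24 on day 21 and 42 and 88 in Pre AM, or 10.8 and 17.1 CPM against 20.6 and 36.0 CPM. The mean was 14.0 ± 4.42 CPM on day 21 and 28.3 ± 10.9 CPM in Pre AM, a log2 difference of −1.02 ± 0.73 that did not pass (SE, n = 2 and 2; edgeR adjusted p = 0.998, unadjusted p = 0.173). It kept its sign in every setting.

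The lower Tgfbr1 values lay at the last site. That tag had 11 and 6 counts on day 21 and 35 and 52 in Pre AM, or 6.28 and 4.28 CPM against 17.2 and 21.3 CPM, with a log2 difference of −1.85 ± 0.77 (edgeR on single tags, unadjusted p = 0.0310, adjusted p = 0.908). The groups did not overlap at that site. The other 5 Tgfbr1 tags together had 8 and 18 counts against 7 and 36, or 4.57 and 12.8 CPM against 3.44 and 14.7 CPM, and overlapped. The last-site tag did not pass edgeR's test of tag usage (unadjusted p = 0.392, adjusted p = 0.9999).

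Tgfbr2, the type II receptor that binds the ligand and phosphorylates the type I chain, had 32 and 27 counts on day 21 and 31 and 61 in Pre AM, or 18.3 and 19.2 CPM against 15.2 and 24.9 CPM. Both day 21 values lay between the Pre AM values. The log2 difference was −0.10 ± 0.71 (SE, n = 2 and 2; edgeR adjusted p = 0.998), and 0.33 without Pre AM replicate 2. No counted Tgfbr2 tag was at the last site of a principal transcript. Its 2 tested tags lay on opposite sides: the 3′ UTR tag had 18 and 9 counts against 23 and 33 and was lower in both day 21 libraries, and the coding tag had 10 and 14 against 6 and 13 and was higher in both by CPM (5.71 and 9.98 against 2.94 and 5.32). Neither passed, with log2 differences of −0.57 ± 0.75 and 0.89 ± 0.86 (adjusted p = 0.999 each in edgeR on single tags). Neither tag passed edgeR's test of tag usage (unadjusted p = 0.4995 and 0.262, adjusted p = 0.9999 each).

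**Figure D3:**
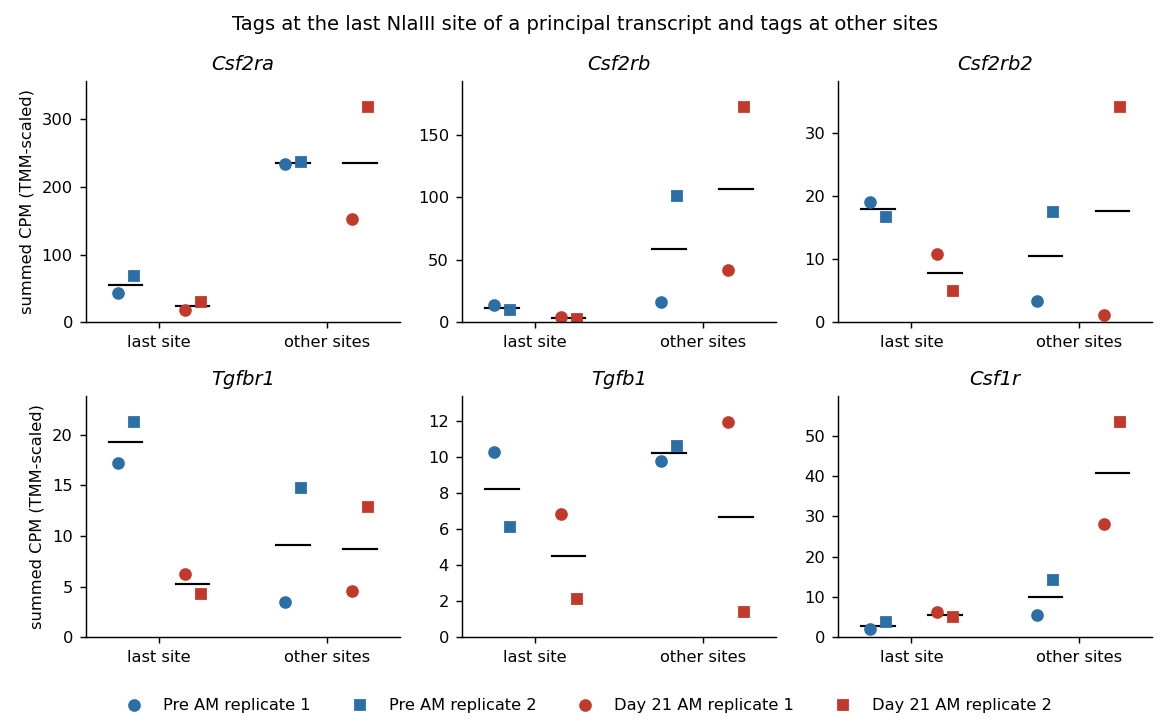
Summed CPM per library of tags at the last NlaIII site and of all other tags, for 6 genes; bars are group means and each panel has its own linear axis from 0. At the last site Csf2ra, Csf2rb, Csf2rb2 and Tgfbr1 were lower in both day 21 libraries, while at the other sites their groups overlapped.

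Across the set, last-site tags and other tags therefore gave different orders of the groups. Of 6 tested last-site tags, 4 were lower in both day 21 libraries and 1, that of Igf1, was higher. The Igf1 tag passed the count filter only through its day 21 counts. Of 12 tested tags at other sites, 1 was lower and 3 were higher without overlap. The same tendency held over the whole table: 21.5% of 1486 tested last-site tags were lower without overlap and 10.9% higher, against 10.6% lower and 19.7% higher among 2421 other tags. None of the 18 tested tags of the set passed edgeR's test on single tags, where 0.358% of 3907 tags passed. At an unadjusted p under 0.05 there were 2 higher and 1 lower of the 18, beside 3.51% higher and 1.38% lower of all tested tags.

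The share of all counts that fell on last-site tags differed between libraries. It was 76.5% and 70.3% on day 21 and 71.5% and 64.4% in Pre AM, lower in replicate 2 of each group. Of the tested last-site tags, 31.7% had higher CPM in replicate 2 on day 21 and 40.2% in Pre AM, while 62.2% and 68.0% of other tags did. In the set, 8 of 12 tested tags at other sites and 1 of 6 last-site tags were higher in replicate 2 in both groups. The part of these library differences in the values of single genes was not tested.

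When genes were summed over last-site tags only, an alternative added after the data were seen, the log2 difference was −1.01 ± 0.63 for Csf2ra, −1.56 ± 0.71 for Csf2rb, −0.9995 ± 0.64 for Csf2rb2, −0.65 ± 0.76 for Tgfb1 and −1.69 ± 0.67 for Tgfbr1. In the sums over other tags it was −0.26 for Csf2ra, 0.72 for Csf2rb, 0.53 for Csf2rb2, −0.69 for Tgfb1 and −0.23 for Tgfbr1. The direction for Csf2rb thus depended on the site counted, and Csf2rb2 was negative in the last-site sum and positive in the other. None of these passed edgeR's test, where 0.399% of all genes tested from last-site tags and 0.0551% of those tested from other tags did. Among these 5 genes the smallest unadjusted p was 0.0291, for Tgfbr1 at the last site (adjusted p = 0.689). Igf1 had an adjusted p of 0.118 from its last-site tag (unadjusted p = 0.000693) and Csf1r one of 0.826 from its other tags (unadjusted p = 0.0230).

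**Figure D4:**
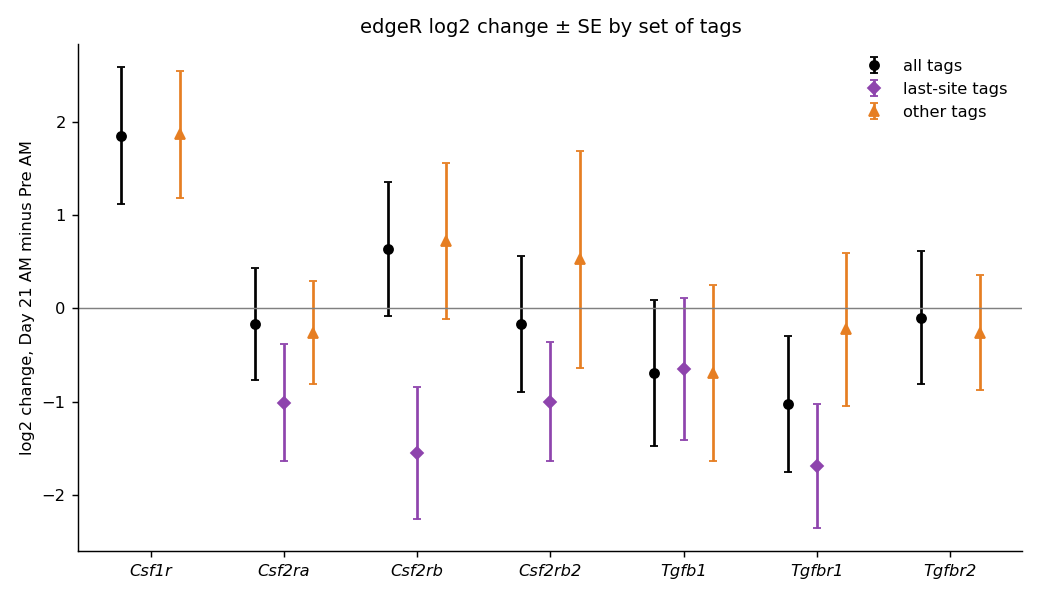
Log2 change (Day 21 AM minus Pre AM, edgeR) with its SE for the sum of all tags, last-site tags only and other tags only; Csf1r had too few last-site counts to be tested and Tgfbr2 had none. The last-site values of Csf2ra, Csf2rb, Csf2rb2 and Tgfbr1 lie between −1.69 and −0.9995, and no value shown passed the threshold.

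The wider pathways were read from lists of other genes. Of 34 other genes of colony-stimulating factor signalling, 24 had counts and 15 were tested, of which 4 had positive and 11 negative log2 differences, with a median of −0.47, beside 54.5% negative among all tested genes. By edgeR 0 passed in either direction, 0 had an unadjusted p under 0.05, and DESeq2 and limma-voom called 0. Cish, a STAT5-induced inhibitor of cytokine receptor signalling, had 2 and 3 counts on day 21 and 11 and 22 in Pre AM. Gab2, an adaptor downstream of both receptor classes, had 6 and 4 against 11 and 35. Lyn, a Src-family kinase gene, also had non-overlapping lower values (473 and 330 CPM against 618 and 541 CPM). None of these 3 genes passed, with log2 differences from −2.12 ± 1.06 for Cish to −0.53 ± 0.57 for Lyn. Leaving out 1 library brought 1 gene of the list past the threshold, lower without Day 21 AM replicate 1 (Cebpb) and higher without Pre AM replicate 2 (the kinase gene Jak1, named after its values were seen). The transcription factor gene Cebpb (3892 and 327 CPM against 6011 and 1440 CPM) and the adaptor gene Ywhaz (120 and 162 CPM against 117 and 204 CPM) overlapped between the groups.

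The TGF-beta list held 37 other genes, of which 19 had counts and 6 were tested, with a median log2 difference of 0.18. By edgeR 0 passed, 0 had an unadjusted p under 0.05, and DESeq2 and limma-voom called 0. Nrros, which anchors latent TGF-beta on myeloid cells, stood at 400 and 291 CPM on day 21 and 399 and 288 CPM in Pre AM, a log2 difference of 0.01 ± 0.58. Fkbp1a, whose product binds the type I receptor, stood at 273 and 298 CPM against 310 and 140 CPM. Snw1, a transcriptional coregulator that binds Smads, was higher in both day 21 libraries (9.70 and 19.2 CPM against 3.93 and 7.77 CPM; log2 difference 1.28 ± 0.79, edgeR adjusted p = 0.998). The groups overlapped for Ski, a corepressor of Smads, and for Smurf1, a ubiquitin ligase of the pathway.

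The other genes of the insulin-like growth factor axis were barely read. Of 21 genes, 4 had counts and 0 were tested. The receptor gene Igf1r had 3 and 3 counts on day 21 and 7 and 2 in Pre AM. Akt1, a kinase downstream of it, had 2 and 0 against 10 and 4, and Igf2bp3, an RNA-binding protein gene, had 4 and 0 against 5 and 0. Of 22 genes of the VEGF and hypoxia list, 12 had counts and 4 were tested, with a median of 0.04. By edgeR 0 passed, 0 had an unadjusted p under 0.05, and DESeq2 and limma-voom called 0. The glucose transporter gene Slc2a1 had 16 and 11 counts against 9 and 19, and Ldha, a glycolytic enzyme gene, stood at 82.8 and 134 CPM against 73.1 and 168 CPM. Egln2, an oxygen sensor gene, stood at 10.3 and 7.84 CPM against 10.3 and 7.36 CPM.

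Of 24 other growth factor genes of macrophages, 6 had counts and 3 were tested, and by edgeR 0 passed, 0 had an unadjusted p under 0.05, and DESeq2 and limma-voom called 0. Grn, the progranulin gene, stood at 459 and 2336 CPM on day 21 and 155 and 1360 CPM in Pre AM, with replicate 2 the higher in each group, as for Csf2rb, and it passed without Pre AM replicate 2 (edgeR adjusted p = 0.0101). Spp1, the osteopontin gene, stood at 869 and 1148 CPM against 266 and 1198 CPM. Pros1, which encodes a ligand of TAM receptors, had 6 and 7 counts against 20 and 25, lower in both day 21 libraries (log2 difference −1.25 ± 0.82, edgeR adjusted p = 0.998).

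Of 23 tested alveolar macrophage identity genes, several of which depend on GM-CSF signalling, 8 had positive and 15 negative log2 differences, beside 54.5% negative among all tested genes. Their median was −0.46, and 0 passed edgeR's test. At an unadjusted p under 0.05 there were 3 higher and 5 lower, beside the 3.54% and 2.14% of all tested genes, DESeq2 called 1 and limma-voom 0. The count that fell depended on the setting: it was 1 with relative log expression size factors (Cd2), 1 with no filter (Olr1), 1 without Pre AM replicate 2 (Krt79) and 2 with the replicate block (Cd2 and Krt79). Without Pre AM replicate 2, 1 identity gene (Chil3) also rose. The lowest p belonged to Cd2, a surface adhesion receptor gene (14.8 and 12.8 CPM on day 21 against 63.3 and 130 CPM; edgeR adjusted p = 0.0691), and to the scavenger receptor gene Olr1 (2 and 0 counts against 32 and 22; adjusted p = 0.0873). The keratin gene Krt79 was also lower in both day 21 libraries (90.7 and 20.7 CPM against 329 and 210 CPM; adjusted p = 0.204). Of the 3 higher genes at an unadjusted p under 0.05, Bhlhe41 and Fabp5 lay above Pre AM in both day 21 libraries. Bhlhe41 stood at 37.7 and 70.5 CPM against 22.1 and 11.9 CPM (edgeR adjusted p = 0.711). Fabp5 stood at 22.8 and 21.4 CPM against 3.93 and 9.81 CPM (edgeR adjusted p = 0.785). Both were picked with the data already known. Chil3, which encodes a chitinase-like secreted protein, had overlapping groups at 1047 and 2777 CPM against 329 and 1194 CPM. The groups also overlapped for the tetraspanin gene Cd9 and the ribonuclease gene Ear2. The summed CPM of the list overlapped as well, at 3194 and 5678 on day 21 and 2734 and 5522 in Pre AM. Of 20 markers of lung epithelium, endothelium and stroma, 14 were listed, and 11 of those were at 0 in every library. Among the 3 with counts, Epcam, an epithelial adhesion gene, stood at 19.4 and 4.99 CPM on day 21 and 53.5 and 27.0 CPM in Pre AM. The stromal gene Dcn had 4 and 4 counts against 0 and 0.

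**Figure D5:**
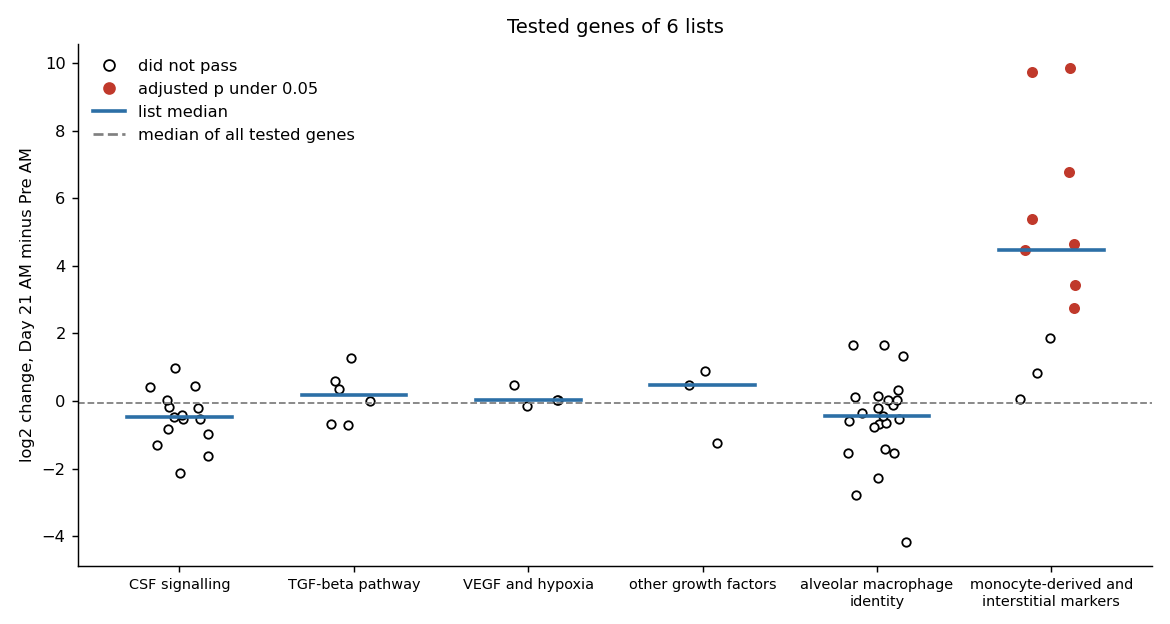
Log2 change (Day 21 AM minus Pre AM, edgeR) of each tested gene in 6 lists; filled points passed the threshold, solid bars are list medians and the dashed line is the median of all tested genes (−0.07). Among the genes plotted, those that passed were all in the list of monocyte-derived and interstitial macrophage markers, 8 of its 11 tested genes.

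For each of the 8 genes, tested genes with the nearest pattern over the 4 libraries were found by Euclidean distance of centred log2 CPM, as a description of 4 points that share their libraries. Nearest to Igf1 were Slc27a1 (17.1 and 29.9 CPM on day 21 against 2.45 and 2.45 CPM), Ifitm1 and Ch25h, at distances of 0.12, 0.19 and 0.61. Nearest to Csf1r were Ssh2 (21.1 and 37.8 CPM against 3.93 and 13.1 CPM), Mpdu1 and Trappc3, at 0.20 to 0.28. Those of Csf2ra were Cdc37 and Icam1 (0.14 and 0.18), and those of Csf2rb were Tnfaip8l2, LOC100503298 and Sh3tc1 (0.18 to 0.25). Csf2rb2 had LOC100045292, Cisd1 and 0610010K14Rik nearest (0.10 to 0.37). For Tgfb1 they were Yaf2, Rnf130 and Arf6 (0.10 to 0.23), for Tgfbr1 Rpl23, Slc29a1 and Anxa4 (0.17 to 0.31), and for Tgfbr2 Ncbp3, Tmem109 and Cox7b (0.03 to 0.10).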

How the data were processed

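SAGE libraries of alveolar macrophages were compared as 2 Day 21 AM against 2 Pre AM libraries. The authors deposited raw counts per 21-base tag each with its symbol and RefSeq accession, per the file headers; mm9 is named in the submitters' processing notes. The method of tag assignment is not given in the sources used here. Per the labels' protocols, tags were amplified by PCR; no molecular identifiers are mentioned, so intervals cover counting error only. Counts of tags were summed per gene by RefSeq accession, and tags were matched after CATG to GENCODE M21 transcripts, whose coordinates are in GRCm38; none were converted from mm9. Tags not listed in the files were not analysed here. The files hold no row without a gene name.

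Genes were tested with edgeR 4.0.16 (R 4.3.3; quasi-likelihood, TMM, filterByExpr with minimum count 10 and minimum total 15, group as the only term) and Benjamini-Hochberg adjustment over 2993 genes. Each SE was derived from the log2 change and the F statistic. The common biological coefficient of variation was 0.482, and an exact permutation test of 2 against 2 cannot go below 0.333. DESeq2 1.42.0, limma-voom 3.58.1 and other settings were alternatives. On simulated counts for these 2993 genes, with 50 genes altered at each size, edgeR found 6% at 2-fold, 30% at 4-fold, 82% at 8-fold and 94% at 16-fold, with 4 false calls. Named genes were all 10 of the set, of each list those passing, the 3 of smallest p and the 3 most abundant, and the 3 nearest patterns (mean of at least 10 CPM, prior count 2); 2 genes that this rule names are not reported here. The set and the lists were chosen with earlier results of these data known.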

Additional observations from a re-analysis of the deposited data

How the results depend on the processing

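Of all tested genes, 20 rose and 2 fell. The genes that rose numbered 9 with total counts alone, 9 with limma-voom, 36 with no filter, 31 with the replicate block, 6 from last-site tags only and 1 from other tags only. The genes that fell numbered 0 with total counts alone, 4 with DESeq2, 5 with no filter, 0 with each tag as its own feature, 9 with the replicate block, 0 from last-site tags and 0 from other tags. Leaving out each library gave 0 (without Pre AM replicate 1) to 63 (without Pre AM replicate 2) higher and 0 to 18 lower, from the same libraries. Of the set, 1 gene rose, Igf1, and 0 did with total counts alone, limma-voom, the robust prior, each tag as its own feature, the replicate block, last-site tags or other tags, and 0 to 1 when a library was left out; the cause was not tested. The last-site and other-tag settings were chosen after seeing the data. Replicate numbers are shared by the groups, but nothing says that they pair the samples. Across 2993 genes the replicate 1 minus replicate 2 differences of the groups had a Pearson r of 0.55, and the replicate block called no gene of the set. Directions turned for Csf2rb from last-site tags (−1.56 on the log2 scale) and for Csf2rb2 from other tags (0.53). They also turned for Ywhaz (0.12), Nrros (−0.024), Ldha (0.38) and Cd9 (0.021) with each tag as its own feature, for Nrros (−0.19) and Egln2 (−0.16) with total counts alone, for Ldha (0.21) and Ear2 (0.27) from other tags, and for Ear2 with limma-voom (0.019) and the replicate block (0.036). Total counts moved the median of all tested genes from −0.07 to −0.29. Leaving out each library in turn changed the sign of these log2 differences, whose lowest and highest values were −0.74 and 0.32 for Csf2ra, −0.60 and 1.89 for Csf2rb, −1.21 and 0.52 for Csf2rb2, −2.29 and 0.065 for Tgfb1, −0.41 and 0.33 for Tgfbr2, −3.45 and 0.56 for Cebpb, −0.52 and 0.29 for Ywhaz, −0.18 and 0.27 for Nrros, −0.091 and 1.03 for Fkbp1a, −0.63 and 0.59 for Ldha, −0.15 and 0.31 for Egln2, −0.69 and 3.20 for Grn, −0.24 and 1.95 for Spp1, −0.53 and 0.25 for Cd9, −0.77 and 1.10 for Ear2, −0.086 and 4.12 for Camp and −0.25 and 7.41 for S100a9. The causes were not tested. With 2 libraries a group, few genes changed 2-fold were recovered in simulated counts (6%).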
